A study of Rattus norvegicus with 6 samples.

Results

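In all, 8 genes of secreted factors that act on blood vessels and 2 genes of their co-receptors were read in the abdominal aortas of Sprague-Dawley rats with aneurysm. They are the VEGF-family ligands Pgf, Vegfa, Vegfb and Vegfc, the neuropilins Nrp1 and Nrp2, the angiopoietins Angpt1 and Angpt2, and the platelet-derived growth factor chains Pdgfa and Pdgfb. All 10 were taken by gene name from a table of 24988 genes, and all 10 passed the filter on low counts that left 16522 genes. The members were selected on the measured difference between NP and untreated libraries: Pgf had stood out among the genes with higher values after treatment. Its difference between groups is therefore given below as a description and not as a test. The other 9 members were added as its family and partners, with results of the same comparison known.

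Total RNA was sequenced from 3 libraries of untreated aneurysm and 3 libraries of aneurysm treated with NP, a targeted nanotherapy whose composition is not given in the sources used here. All 6 aortas carried an aneurysm, so no healthy wall stands beside them, and the rats' age, the way the aneurysm was made, and the dose and time of NP are likewise not given in those sources. Whether the 6 libraries stem from 6 rats is not stated in the labels, and the spread between libraries may be technical. Total counts ran from 26100468 to 30939002 per library. The markers of an aortic wall were found, with 10 of 10 pericyte and smooth muscle markers and 8 of 9 endothelial markers tested. The remaining one, the tight junction gene Cldn5, was listed at 0 in every library. NP replicate 1 stood apart in several of the lists below. It had the lowest value of the 6 libraries in each of the 8 endothelial markers above 0 and the highest in 10 of 11 hypoxia-induced genes, and the folds it moves most are given with and without it.

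VEGF-family ligands bind receptor tyrosine kinases on endothelial cells. VEGF-A acts through the receptors encoded by Flt1 and Kdr, placental growth factor and VEGF-B bind the Flt1 product, and VEGF-C acts mainly through the Flt4 product on lymphatic vessels. Neuropilins bind several of these ligands beside the receptors. Angiopoietin-1 activates the Tie2 receptor, encoded by Tek, and steadies vessels, whereas angiopoietin-2 can block that signal. The PDGF chains recruit pericytes and smooth muscle cells through Pdgfra and Pdgfrb.

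The promoters of Pgf, Vegfa, Pdgfa and Pdgfb, with that of the Pgf receptor gene Flt1, are shown because Pgf was the member whose groups were apart, Flt1 had a profile close to that of Pgf, and the other 3 were highest in NP replicate 1, where the hypoxia-induced genes were high. The sequences are from RefSeq on GRCr8, read 5′ to 3′ along the gene's strand from 250 bases before to 50 bases after the annotated start. Capitals mark the core of the hypoxia response element, ACGTG or GCGTG on either strand (reverse complements CACGT and CACGC), and the GC box GGGCGG on either strand (reverse complement CCGCCC). The windows are chr6:110557698-110557997 on the minus strand for Pgf, chr12:12333180-12333479 on the plus strand for Flt1, chr9:22452604-22452903 on the plus strand for Vegfa, chr12:20759116-20759415 on the plus strand for Pdgfa and chr7:113438294-113438593 on the minus strand for Pdgfb.
Pgf: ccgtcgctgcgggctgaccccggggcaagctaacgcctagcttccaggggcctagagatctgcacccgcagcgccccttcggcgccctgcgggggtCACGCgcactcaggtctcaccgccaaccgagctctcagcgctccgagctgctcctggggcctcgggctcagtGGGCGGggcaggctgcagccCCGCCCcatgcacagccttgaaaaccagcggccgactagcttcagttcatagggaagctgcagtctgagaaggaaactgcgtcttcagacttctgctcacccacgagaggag
Flt1: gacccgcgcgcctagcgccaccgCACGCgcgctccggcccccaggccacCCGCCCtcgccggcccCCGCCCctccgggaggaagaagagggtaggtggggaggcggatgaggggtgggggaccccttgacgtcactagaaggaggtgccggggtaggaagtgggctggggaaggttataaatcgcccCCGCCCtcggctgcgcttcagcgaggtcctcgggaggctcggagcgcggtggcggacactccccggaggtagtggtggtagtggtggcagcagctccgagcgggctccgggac
Vegfa: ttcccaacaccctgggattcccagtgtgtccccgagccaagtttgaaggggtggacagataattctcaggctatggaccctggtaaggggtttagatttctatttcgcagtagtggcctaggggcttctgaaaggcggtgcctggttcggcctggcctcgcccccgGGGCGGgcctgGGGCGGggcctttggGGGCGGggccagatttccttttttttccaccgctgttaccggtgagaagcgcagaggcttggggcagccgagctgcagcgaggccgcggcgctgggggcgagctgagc
Pdgfa: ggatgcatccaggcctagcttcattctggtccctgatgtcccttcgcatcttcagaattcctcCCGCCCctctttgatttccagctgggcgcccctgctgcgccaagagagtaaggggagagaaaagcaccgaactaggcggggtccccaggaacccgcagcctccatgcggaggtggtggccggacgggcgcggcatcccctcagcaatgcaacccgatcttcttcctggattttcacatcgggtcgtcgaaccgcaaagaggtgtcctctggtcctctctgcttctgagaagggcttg
Pdgfb: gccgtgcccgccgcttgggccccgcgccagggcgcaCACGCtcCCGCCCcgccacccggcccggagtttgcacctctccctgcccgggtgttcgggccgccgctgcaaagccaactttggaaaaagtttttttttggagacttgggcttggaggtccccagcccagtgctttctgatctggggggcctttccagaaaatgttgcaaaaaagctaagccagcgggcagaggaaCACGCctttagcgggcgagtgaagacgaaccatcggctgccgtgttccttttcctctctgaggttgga

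The Pgf window held 1 hypoxia response core and 2 GC boxes, and the Flt1 window held 1 core and 3 GC boxes. The Vegfa window held 3 GC boxes and no core, the Pdgfa window 1 GC box and no core, and the Pdgfb window 2 cores and 1 GC box. A second Vegfa start, at chr9:22460028-22460327, had neither motif in its window. Promoter windows were in the RefSeq table for 8 of the 10 members, and 5 of the 8 held the core in at least 1 window and 6 held a GC box. Over all 33469 windows of the table, 41.6% held the core and 33.1% a GC box. These shares are per window, whereas the member counts are per gene, and Vegfa had more than 1 window. The GC content of the member windows, 53.0% to 73.7%, was above the median of 51.7% over all windows. A match is only a run of letters and does not show that a factor binds there. Sequence outside the windows was not searched, so a window without a core does not mean that the gene lacks one.

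The growth factor genes differed widely in level. In FPKM, which divides counts by gene length and library size, Pdgfa stood first with a mean of 43.8 ± 22.5 over the 6 libraries (SD, n = 6), followed by Pdgfb at 37.1 ± 10.7, Nrp1 at 27.3 ± 6.93 and Vegfb at 26.9 ± 7.27. Nrp2 at 14.8 ± 3.15 and Vegfa at 14.8 ± 3.23 formed the middle. Angpt2 followed at 8.64 ± 2.85, then Vegfc at 4.90 ± 1.92, Pgf at 4.81 ± 1.83 and Angpt1 at 1.20 ± 0.713. Of the 9 pairs of neighbours in this order only Pgf and Angpt1 were apart in all values, the lowest Pgf value being 2.68 FPKM and the highest Angpt1 value 2.35 FPKM. The neighbours Vegfb and Nrp2, Vegfa and Angpt2, and Angpt2 and Vegfc kept their order within each of the 6 libraries although their ranges overlapped. Vegfc and Pgf changed places, with Vegfc higher in 3 of 6 libraries.

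**Figure D1:**
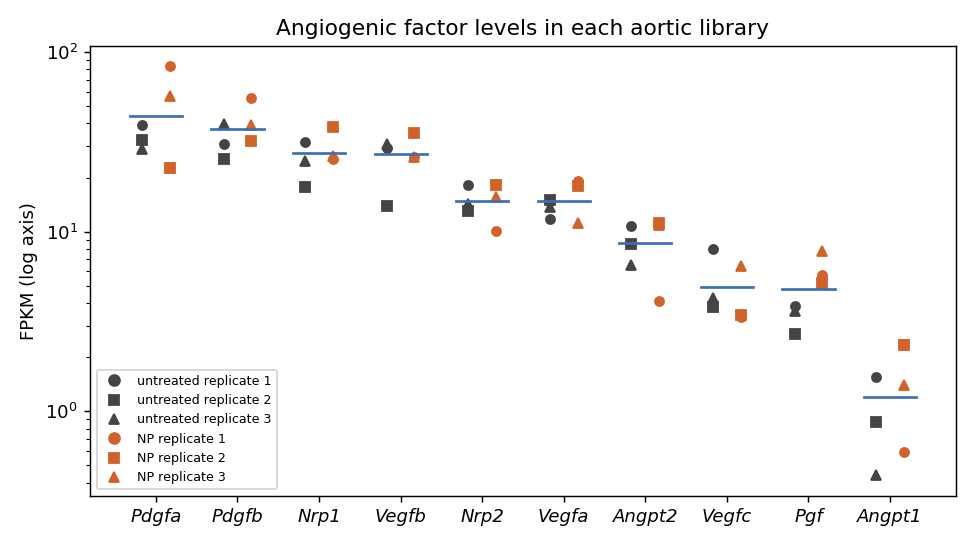
FPKM of the 10 genes in each of the 6 libraries on a log axis, ordered by the mean over all libraries (blue line), with marker shape giving the replicate and colour the group. Pdgfa reaches 83.1 FPKM in NP replicate 1, and the 3 NP values of Pgf lie above its 3 untreated values.

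Between all genes of the table, the mean FPKM of Pdgfa was at percentile 94.1, that of Vegfa at 83.6, that of Pgf at 65.9 and that of Angpt1 at 48.5. Vegfb was the most abundant VEGF-family transcript in 5 of 6 libraries. Shares were taken of the summed FPKM of 5 VEGF-family ligands, the 4 members and Vegfd, a further lymphatic ligand that was added to them after its level of 7.25 ± 1.59 FPKM (SD, n = 6) had been seen. Vegfb made up 32.4% to 52.5% of that sum, and Vegfa 18.5% to 35.0%. The exception was untreated replicate 2, where Vegfa took 35.0% and Vegfb 32.4%. Pgf was a small part of the family, with shares of 6.49%, 6.22% and 5.86% in the untreated libraries, replicate 1 first, and 9.53%, 7.66% and 13.0% in the NP libraries. Every NP share of Pgf was above every untreated one, as for its level, which had guided the choice of Pgf. The Vegfc share ran from 5.04% to 13.5% and the Vegfd share from 8.50% to 17.5%, and each overlapped between groups.

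The treated and untreated aortas were compared to ask which of these factors differ with NP. Values by library are in CPM (counts scaled to TMM library sizes), which are not divided by gene length. By edgeR's quasi-likelihood test over 16522 genes, 0 of the 10 members passed an adjusted p of 0.05, and percent called among all genes was 0%. At an unadjusted p under 0.05 there was 1 member, Pgf, and 1.93% of all genes. DESeq2 and limma-voom also called 0 members. The fold was above 1 in 7 of 10 members, where 55.6% of all tested genes had a fold above 1. The median log2 fold change was 0.28 over the members and 0.04 over all genes. NP values lay wholly above untreated values in 1 member, Pgf, against 2.47% of all genes, and wholly below them in 0 members, against 3.2%. In either direction the groups were apart in 1 of 10 members and 5.67% of all genes. Since this comparison was known when the genes were chosen, nothing is read from these counts.

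Pgf, placental growth factor, was at 7.14, 5.29 and 7.11 CPM in the untreated libraries (replicate 1 first, here and below) and at 12.7, 9.23 and 14.7 CPM in the NP libraries. The groups did not overlap, and untreated replicate 2 held the lowest and NP replicate 3 the highest value. The means were 6.51 ± 1.06 CPM and 12.2 ± 2.77 CPM (SD, n = 3 each), a log2 fold change of 0.90 (SE 0.28). These values rest on 146 to 418 counts per library. The fold was 0.75 to 1.07 on the log2 scale when each library was left out in turn, the lowest without NP replicate 3. The spread of log2 CPM within groups was 0.30 for Pgf, against a median of 0.39 over all tested genes.

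Vegfa, the central growth factor of blood vessels, was at 48.1, 65.9 and 59.1 CPM untreated and at 92.6, 69.9 and 46.2 CPM with NP. The NP group held both the highest and the lowest value, so the groups overlapped. The log2 fold change was 0.27 (SE 0.28), and 0.00 (SE 0.24) without NP replicate 1. Vegfb, a ligand of the Flt1 receptor, was at 62.0, 31.5 and 69.0 CPM untreated and at 66.3, 72.1 and 56.1 CPM with NP. Untreated replicate 2 was far below the other 5 libraries. The log2 fold change of Vegfb was 0.26 (SE 0.30), and -0.02 without untreated replicate 2.

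Vegfc, the lymphatic growth factor, was at 20.3, 10.3 and 11.5 CPM untreated and at 10.2, 8.28 and 16.7 CPM with NP. Untreated replicate 1 was the highest and the groups overlapped. The log2 fold change was -0.26 (SE 0.37), and 0.11 without untreated replicate 1. The 3 lymphatic endothelial markers Prox1, Lyve1 and Pdpn summed to 99.4 to 122 CPM untreated and 74.4 to 111 CPM with NP, and none was at 0. Prox1, the lymphatic transcription factor, was at 20.4, 6.71 and 6.54 CPM untreated and at 0.544, 4.95 and 14.6 CPM with NP, highest in untreated replicate 1 and next in NP replicate 3, as Vegfc was. The other markers of the list did not have this order. Pdpn, which fibroblasts also express, was at 33.5, 34.5 and 39.2 CPM untreated and at 10.2, 19.8 and 31.9 CPM with NP. It was highest in untreated replicate 3, and its groups did not overlap. Lyve1 was at 66.3, 80.6 and 53.6 CPM untreated and at 63.6, 75.9 and 64.3 CPM with NP. It was highest in untreated replicate 2 and next in NP replicate 2, and its groups overlapped. The part of these markers in the Vegfc values was not tested.

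Among the neuropilins, Nrp1 was at 205, 122 and 171 CPM untreated and at 199, 236 and 177 CPM with NP. Untreated replicate 1 lay between NP replicates 1 and 2, so the groups overlapped. The log2 fold change was 0.29 (SE 0.24), with 0.11 without untreated replicate 2 and 0.47 without untreated replicate 1. Nrp2, which also binds VEGF-C, was at 137, 104 and 113 CPM untreated and at 90.6, 131 and 120 CPM with NP. NP replicate 1 was the lowest, and the log2 fold change of -0.05 (SE 0.21) was 0.08 without it. Nrp2 had a spread of 0.24 within groups on the log2 scale, the smallest of the 10 members.

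Angpt1, the Tie2 agonist, was the faintest member, at 3.50, 2.10 and 1.06 CPM untreated and at 1.60, 5.05 and 3.24 CPM with NP. It had only 32 to 144 counts per library and the widest spread within groups of the 10, 0.83 on the log2 scale, and the groups overlapped. Its log2 fold change of 0.57 (SE 0.59) was 0.12 without NP replicate 2 and 1.06 without untreated replicate 1. Angpt2, the context-dependent antagonist made by endothelial cells, was at 31.0, 26.3 and 20.1 CPM untreated and at 14.2, 31.0 and 32.1 CPM with NP. NP replicate 1 was the lowest library and NP replicate 3 the highest, and the log2 fold change was 0.00 (SE 0.34), or 0.28 (SE 0.22) without NP replicate 1. In FPKM, Angpt2 exceeded Angpt1 in every library, by 6.89, 9.80 and 14.8 times untreated and by 6.92, 4.75 and 7.71 times with NP. The groups overlapped in this ratio.

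Pdgfa, the A chain, was at 51.0, 43.8 and 41.8 CPM untreated and at 135, 29.9 and 77.0 CPM with NP. NP replicate 1 was the highest and NP replicate 2 the lowest of the 6 libraries, so the groups overlapped. The log2 fold change was 0.83 (SE 0.48), 0.22 (SE 0.38) without NP replicate 1 and 1.22 without NP replicate 2. Pdgfb, the B chain, was at 79.7, 69.5 and 108 CPM untreated and at 173, 78.7 and 104 CPM with NP. NP replicate 1 was again the highest, and the log2 fold change of 0.47 (SE 0.33) was 0.08 (SE 0.24) without it. The FPKM ratio of Pdgfa to Pdgfb was 1.27, 1.29 and 0.732 untreated and 1.49, 0.713 and 1.43 with NP, with overlapping groups. In the deposited table the gene length implied by count and FPKM moved by 0.12 on the log2 scale between libraries for Pdgfa, and by at most 0.02 for the other 9 members.

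**Figure D2:**
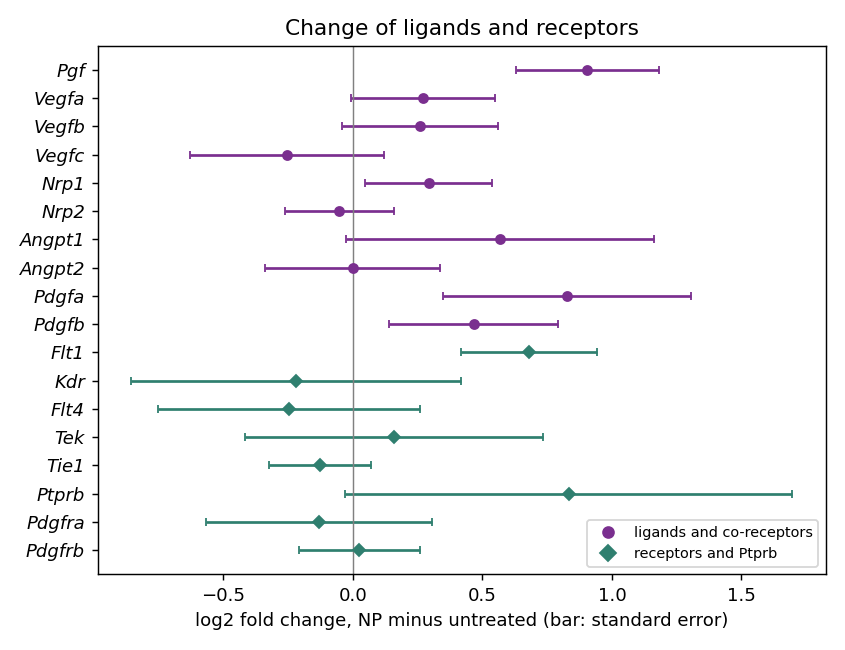
Log2 fold change, NP minus untreated, with its standard error for the 10 members (circles) and for receptors and the phosphatase gene Ptprb (diamonds). Pgf is at 0.90 and its receptor gene Flt1 at 0.68, while Angpt2 is at 0.00.

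Vegfa, Pdgfa and Pdgfb had their highest value in NP replicate 1, and Angpt2 and Nrp2 their lowest. In that library the 11 hypoxia-induced genes summed to 4361 CPM, against 1081 to 1397 CPM in the other 5 libraries. The list was 1137 to 1397 CPM untreated and 1081 to 4361 CPM with NP, and none of its genes was at 0. The 9 endothelial markers summed to 216 CPM in NP replicate 1, the lowest, and to 1261 CPM in NP replicate 3, the highest, with 442 to 690 CPM untreated. The 10 pericyte and smooth muscle markers summed to 2050 CPM in NP replicate 1 and to 4341 and 5413 CPM in NP replicates 2 and 3, against 2612 to 2997 CPM untreated. The 8 macrophage markers summed to 5097, 3564 and 2620 CPM in NP replicates 1, 2 and 3, against 3386 to 4425 CPM untreated. The single markers were split, as NP replicate 1 was the highest library for 3 of the 8 and the lowest for 2. Those 2 were Mrc1, at 144 CPM there, and Cd163, at 7.73 CPM. The 8 adipocyte markers summed to 997 to 1255 CPM untreated and 229 to 521 CPM with NP. The part of these lists in the values of the growth factors was not tested. In whole tissue, fewer cells of a type and less RNA per cell cannot be told apart.

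**Figure D3:**
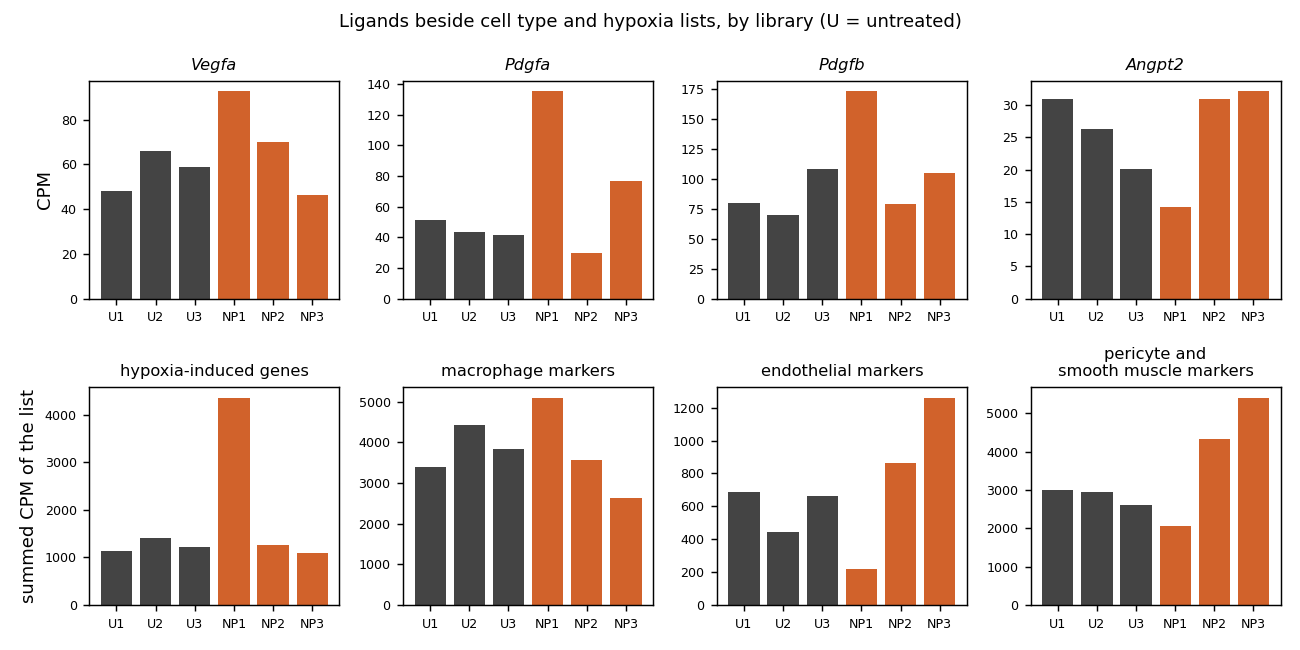
CPM of Vegfa, Pdgfa, Pdgfb and Angpt2 (top) and summed CPM of 4 marker lists (bottom) in each library, untreated in grey and NP in orange. In NP replicate 1 the hypoxia-induced genes sum to 4361 CPM and Pdgfa reaches 135 CPM, while the endothelial markers sum to 216 CPM.

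Untreated replicate 2 was the lowest library for 4 members, Pgf, Vegfb, Nrp1 and Pdgfb. All 5 of the 5 platelet markers were also lowest there, at a sum of 74.1 CPM against 147 to 249 CPM in the other 5 libraries, and none was at 0. Pf4 alone made up most of that sum, at 70.5 CPM in untreated replicate 2 and 93.9 to 208 CPM in the other libraries. Ppbp and Gp1bb were also low in NP replicate 2, at 0.211 and 2.81 CPM, and Vegfb and Nrp1 were highest in that library. As background, platelets carry PDGF-B and VEGF-family proteins in their granules, whereas all values here are of RNA. The 6 T and B cell markers summed to 30.6, 157.5 and 37.7 CPM untreated and to 19.4, 27.3 and 29.3 CPM with NP. Untreated replicate 2 was thus far the highest, and the groups did not overlap in this sum. All 6 had a fold below 1, but NP values lay wholly below untreated values in only 1, Cd8b, against 3.2% of all genes. Cd8b was at 14.9, 25.4 and 19.7 CPM untreated and at 13.7, 9.83 and 9.51 CPM with NP. In each of the other markers of this list the groups overlapped. The part of either list in the low values was not tested.

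Receptors were read beside the ligands. Flt1, the receptor of Pgf and Vegfb, was at 42.5, 31.1 and 34.1 CPM untreated and at 58.4, 39.8 and 74.3 CPM with NP. NP replicate 2 lay just below untreated replicate 1, so the groups overlapped. At a log2 fold change of 0.68 (SE 0.26), Flt1 did not pass (adjusted p = 1 by edgeR). The other VEGF receptor genes went the other way in NP replicate 1. Kdr was at 59.6, 38.8 and 48.6 CPM untreated and at 8.45, 47.7 and 70.1 CPM with NP. Flt4 was at 62.9, 72.1 and 53.5 CPM untreated and at 21.3, 39.5 and 98.1 CPM with NP. NP replicate 1 thus held the lowest value of Kdr and of Flt4 but the next to highest of Flt1. The log2 fold change of Kdr was -0.22 (SE 0.64), or 0.26 without NP replicate 1, and that of Flt4 was -0.25 (SE 0.50), or 0.12 without it. For Flt1 it was 0.66 without NP replicate 1 and 0.45 without NP replicate 3, the lowest with a library left out.

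Tek, the Tie2 gene, was at 65.5, 35.7 and 63.1 CPM untreated and at 16.8, 69.1 and 97.7 CPM with NP, lowest in NP replicate 1, and its log2 fold change of 0.16 (SE 0.57) was 0.60 without that library. For Tie1, its partner receptor, the log2 fold change was -0.13 (SE 0.20), and for Ptprb, the phosphatase that restrains Tie2, it was 0.83 (SE 0.86). The Ptprb fold was 1.36 without NP replicate 1 and 0.06 without NP replicate 3, and that of Tie1 was -0.03 without NP replicate 1. The receptors of the PDGF chains gave log2 fold changes of -0.13 (SE 0.44) for Pdgfra and 0.02 (SE 0.23) for Pdgfrb, and of 0.15 and 0.13 without NP replicate 1. None of these receptors had groups that did not overlap.

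Of the 34 pathway genes that are not members, 0 passed the threshold by edgeR, and 1, Flt1, had an unadjusted p under 0.05. DESeq2 and limma-voom called 0 of the 34. The fold was above 1 in 20 and below 1 in 14, and the median log2 fold change was 0.10, against 0.04 over all tested genes. Leaving out Flt1 and the other receptors above, the smallest p-values on the high side belonged to Met, the receptor of hepatocyte growth factor, at a log2 fold change of 1.12 (SE 0.62), and Esm1, an endothelial proteoglycan of tip cells, at 1.23 (SE 0.71). Met reached 42.4 CPM in NP replicate 1 and at most 15.8 CPM in the other libraries, and without that library its log2 fold change was 0.24 (SE 0.48). Esm1 was at 10.5, 2.10 and 3.83 CPM untreated and at 9.43, 5.79 and 23.5 CPM with NP. Its log2 fold change was 0.47 without NP replicate 3 and 2.12 without untreated replicate 1. On the low side they belonged to Pdgfc, a further PDGF ligand, at -0.50 (SE 0.36), and Eng, the TGF-beta co-receptor endoglin, at -0.21 (SE 0.24). Without NP replicate 1 these were -0.20 and -0.05. Each of these 4 missed the threshold at an adjusted p = 1 by edgeR.

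The genes whose profile over the 6 libraries was closest to that of Pgf were found among 11809 genes with a usual symbol and a mean of at least 2 CPM. The measure was the root mean square difference of log2 CPM after each gene's mean was subtracted. The 5 closest were Pln at 0.14, Socs4 at 0.15, Flt1 at 0.17, Nexn at 0.19 and Samd11 at 0.20. Pln encodes the calcium pump regulator phospholamban, Socs4 a member of the SOCS family, and Nexn the actin-binding protein nexilin. Each of the 5 was lowest in untreated replicate 2 and highest in NP replicate 3, as Pgf was. With only 6 libraries, which share their depth scaling, many genes can come close to a given profile, so the list is a description.

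The clock genes also differed between libraries, and so did Pgf and Flt1 within the NP group. Arntl, a core clock activator, was at 40.2, 9.83 and 8.16 CPM untreated and at 26.1, 6.18 and 26.0 CPM with NP, so 1 untreated and 2 NP libraries were high. The 13 clock genes summed to 280 to 878 CPM untreated and 217 to 928 CPM with NP, and none was at 0. Among the libraries with high Arntl, Pgf was at 7.14 CPM in the untreated one and 12.7 and 14.7 CPM in the NP ones, and Flt1 at 42.5 CPM and at 58.4 and 74.3 CPM. Among those with low Arntl, Pgf was at 5.29 and 7.11 CPM untreated and 9.23 CPM with NP, and Flt1 at 31.1 and 34.1 CPM and at 39.8 CPM. Values of both genes were higher with NP on either side of Arntl. For Pgf any such split must give this, because its groups did not overlap, and Flt1 had a profile close to that of Pgf. The high side held 1 untreated library and the low side 1 NP library. Nothing is read from this split, and the part of the clock in these values was not tested.

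**Figure D4:**
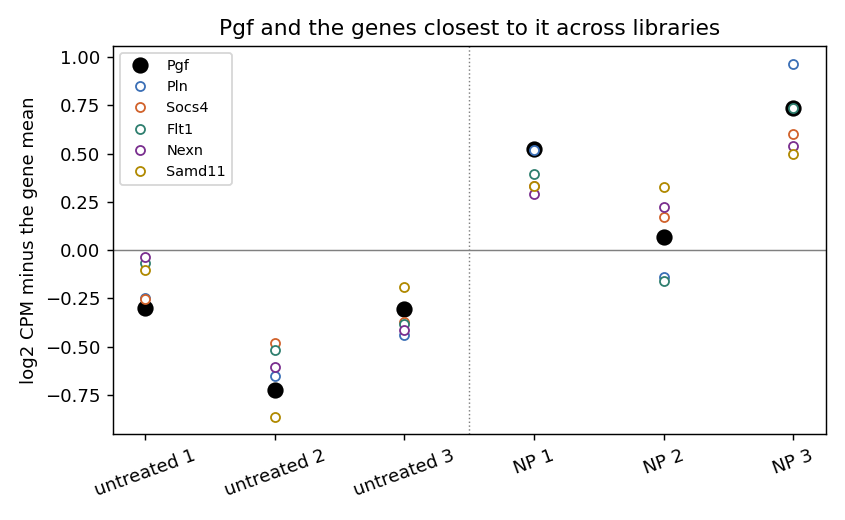
Log2 CPM minus the gene's own mean in each library for Pgf (filled black) and the 5 genes with the closest profile (open circles), untreated libraries left of the dotted line. Pgf runs from -0.73 in untreated replicate 2 to 0.74 in NP replicate 3.

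Because Flt1 was among the closest genes, the ligand and receptor were also set side by side within libraries. The FPKM ratio of Pgf to Flt1 was 0.749, 0.758 and 0.929 untreated and 0.967, 1.03 and 0.884 with NP. The groups overlapped. The FPKM ratio of Pgf to Vegfa was 0.327, 0.178 and 0.265 untreated and 0.299, 0.291 and 0.700 with NP. NP replicate 3 stood above the rest in it, and the groups overlapped. Vegfb to Vegfa ran from 0.926 in untreated replicate 2 to 2.49 in untreated replicate 1, with overlapping groups.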

How the data were processed

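Total RNA of rat abdominal aortas was sequenced by the submitters in 3 untreated and 3 NP libraries. The authors deposited 1 table with a raw count and an FPKM value per gene and library. Per the series design text reads were filtered with SOAPnuke, and HISAT2 2.0.4 is listed in the submitters' processing notes. The sources used here name no counting tool, build, annotation or strand setting. FPKM values were computed by the authors.

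The deposited counts were tested with edgeR 4.0.16 in R 4.3.3 (filterByExpr at a minimum count of 10, TMM, quasi-likelihood test, Benjamini-Hochberg over all tested genes). Standard errors are the fold change divided by the root of its F value. Log2 CPM used a prior count of 2. Alternatives were DESeq2 1.42.0, its size factors, limma-voom (limma 3.58.1), limma on log2(FPKM + 1), no filter, a replicate block and each library left out.

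Members and gene lists were chosen with earlier results of these data known. Named were the members, the receptors, the other pathway genes with the 2 smallest p-values per direction and the 5 closest profiles to Pgf. The endothelial marker Pecam1 matched no row name and was not used here. No pair of libraries agreed within sampling noise (chi-square per degree of freedom at least 55.7).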

Additional observations from a re-analysis of the deposited data

How the results depend on the processing

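By edgeR 0 genes passed the threshold (319 at an unadjusted p under 0.05), also with DESeq2 size factors, without a filter and by limma-voom. DESeq2 called 26 genes, 24 lower and 2 higher, and limma on log2(FPKM + 1) called 1; the cause was not tested. No member and no pathway gene was among them. With the replicate number as a block 0 genes were called. The labels do not say whether the numbers pair the samples. Same-numbered libraries had deviations from their group means that correlated at -0.17, 0.07 and -0.27. With 3 libraries per group these values cannot settle it. Leaving out each library in turn gave 0 genes each time, and 7 to 10 members with a fold above 1, where all libraries gave 7. Neighbouring members separated in FPKM numbered 1, and 1 to 2 with a library left out, the higher number without untreated replicate 2 or NP replicate 2. The sign of the fold changed in at least 1 setting for Vegfb, Vegfc, Nrp2 and Angpt2, and in none of the 13 for the other 6 members. Angpt1 had the fewest counts of the members, 32 to 144 per library.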
